A study of Bos taurus with 13 samples.

Results

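A set of 67 genes stood at least 1 log2 unit higher after 3 days than after 6 h in bovine mesenchymal stem cells kept at 37 °C, and lay within 0.5 log2 units of the matched control in every heated group. They were chosen from the measured values themselves, out of 16595 genes in the deposited table. The rule took y = log2(value + 1) of the normalised value, averaged y within each group, and kept genes with a mean value from 50 to under 20000 over the 13 libraries, with T of at least 1 and with absolute S, L and R all under 0.5. T is the 3-day control minus the 6 h control. S is 6 h of heat minus the 6 h control, L is 3 days of heat minus the 3-day control, and R is heat then recovery minus the 3-day control. A difference of 1 on this scale is about a doubling. Because the rule used these 4 differences, the members' values in them are given as a description and support nothing.

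The cells were primary cultures from bovine umbilical cord (mesenchymal stem cells, adherent stromal cells that can form several connective tissue lineages), grown in low-glucose medium with serum at early passage. ShortNT cells were held for 6 h at 37 °C (6 h control, n = 3) and ShortHS cells for 6 h at 40.5 °C (6 h heat, n = 3). LongNT cells were held for 3 days at 37 °C (3-day control, n = 2), LongHS cells for 3 days at 40.5 °C (3-day heat, n = 3), and ShortHS_Recovery cells for 6 h at 40.5 °C and then 66 h at 37 °C (recovery, n = 2). The cultures had been seeded a day before treatment, so the 3-day groups were also older. Time in culture, cell density and time of harvest cannot be told apart. The labels name no donor, culture day or batch for the replicate numbers, so the spread between replicates may be in part technical. In bulk RNA, fewer cells of a type and less RNA per cell cannot be told apart either.

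After seeding, stromal cells attach, spread, divide and lay down matrix. As they fill the dish, contact between neighbours and the used medium are known to slow division and to change the expression of matrix, adhesion and signalling genes. Heat acts by another route, in which the factor HSF1 induces chaperones while the output of many other genes is altered. Matched controls at both ages let genes that follow the age of the culture be set beside those that follow its temperature.

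The table lists Ensembl identifiers with no gene names, and 0 of the 16595 identifiers were matched to the RefSeq gene table used here. The lists of pathway genes, cell type markers and promoter motifs were therefore not applied, and the labelled cell type was not checked against markers. The members with the largest and the next largest T are given by identifier, and the others by their rank in T, from member 1 (largest) to member 67 (smallest). Reads recovered from the values ran from 14859428 to 39117065 per library, and the lowest count of any member in any library was 11 reads. Replicate 3, which only ShortNT, ShortHS and LongHS have, stood apart from replicates 1 and 2 in many genes. Some results that rest on it are also given without it. The counts of S, L and R over genes with T of at least 1 are given only with it. So are the quartiles of T, the sign counts of S and L, the members called for T, the residual SDs and the limma intervals.

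Of the 11182 genes with a mean value in the range, 428 had T of at least 1, and the 67 members were 15.7% of these. The limit on L removed most of the rest. Absolute L was under 0.5 in only 121 of the 428 genes, against 261 for S and 360 for R. Continued heat left 237 of the 428 genes at least 0.5 below the 3-day control and 70 at least 0.5 above it. After 6 h of heat 98 were at least 0.5 lower and 69 at least 0.5 higher, and after recovery 24 were lower and 44 higher by that much. By this limit, genes that kept their 3-day level under continued heat were the smaller share of those that were higher with time at 37 °C. Over all 11182 genes in the range the quartiles were -0.27 and 0.22 for S, -0.33 and 0.32 for L, and -0.13 and 0.12 for R. The share of all these genes past 0.5 was not taken. L and R both share the 3-day control libraries with T, with opposite sign, so a choice on high T can lower both. How much it did so was not tested.

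**Figure D1:**
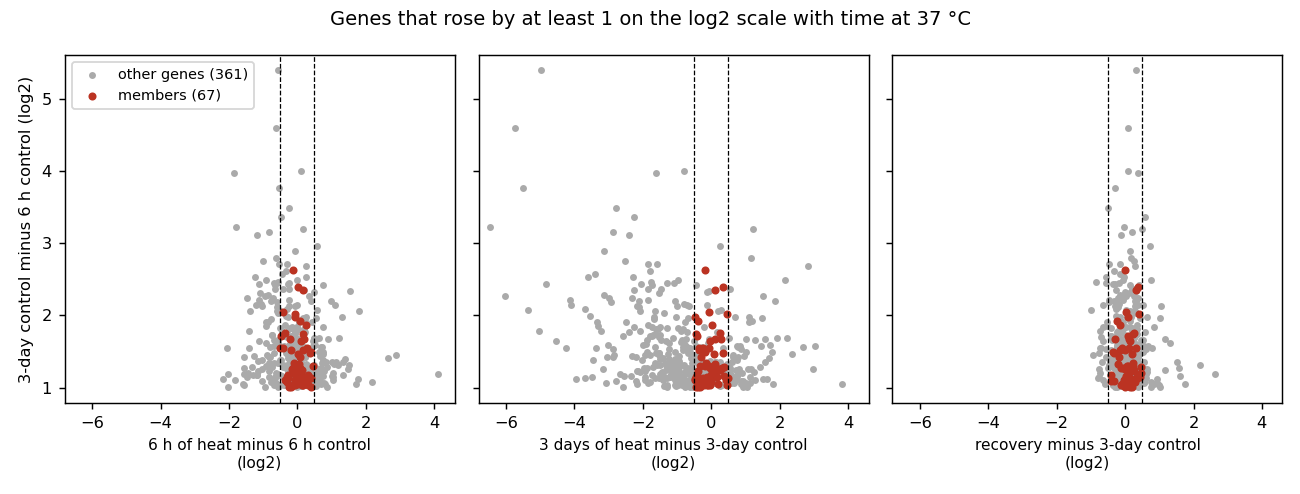
Each point is 1 of the 428 genes with T of at least 1. The y axis is T and the x axes are S, L and R, all in log2 units, and dashed lines mark the limits of 0.5 that bound the 67 members (red). The 361 other genes (grey) spread most widely along L, the effect of 3 days of heat, where 237 genes lie at or to the left of -0.5.

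The members' T ran from 1.00 to 2.62, with a median of 1.24, beside a median of -0.03 over all 11182 genes in the range. The quartiles were 1.11 and 1.54, and T was above 2 in 5 members. Most members therefore lay near the lower limit of the rule. Just inside it, members 67, 66 and 65 had T of 1.00, 1.00 and 1.01. Just outside it, the nearest genes that met every other clause had T of 0.9997, 0.9989 and 0.998. At the limit on the heat differences, the members closest to it had a largest absolute S, L or R of 0.495, 0.480 and 0.477, and the nearest genes outside had 0.501, 0.501 and 0.518.

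The members spanned a wide range of abundance. Mean normalised values over the 13 libraries ran from 55.7 to 19673, with a median of 454, beside a median of 671 over all genes in the range and 215 over the 361 other genes with T of at least 1. The mean was under 100 in 8 members, from 100 to under 1000 in 36, from 1000 to under 10000 in 22 and above 10000 in 1. Together the members made up 0.284%, 0.283% and 0.273% of the summed normalised values in the 6 h control libraries and 0.267%, 0.256% and 0.299% in the 6 h heat libraries. The share was 0.618% and 0.616% in the 3-day control, 0.647% and 0.653% in the recovery group, and 0.627%, 0.639% and 0.527% in the 3-day heat group. The 6 libraries taken at 6 h all lay below the 7 taken at 3 days, and replicate 3 of the 3-day heat group was the lowest of these 7.

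**Figure D2:**
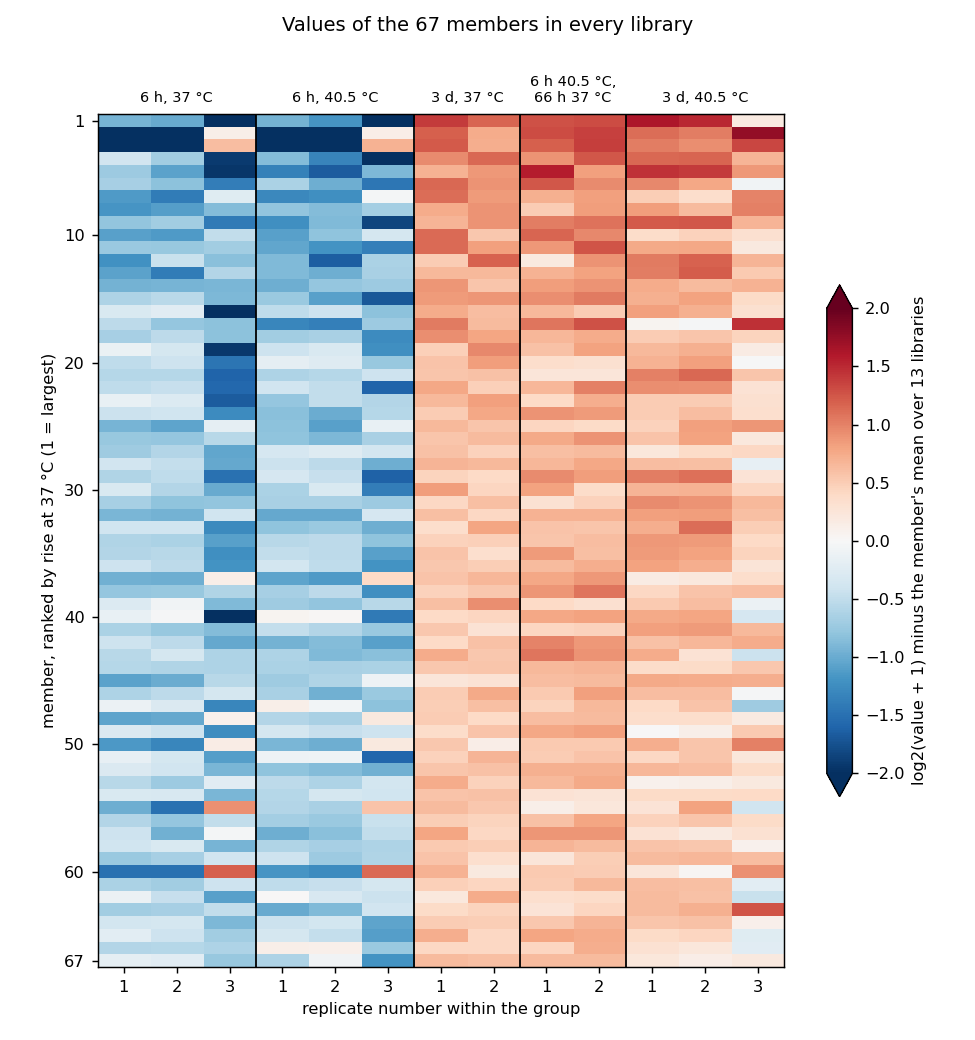
Rows are the 67 members ranked by T and columns are the 13 libraries, numbered by replicate within each group. Colour is log2(value + 1) minus the member's mean over the libraries, from blue (low) to red (high), and is capped at -2 and 2. The 6 h libraries are mostly blue and the 3-day libraries mostly red, and the columns of replicate 3 differ from their neighbours in many rows.

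ENSBTAG00000015074, member 1, had the largest T, 2.62, which is a 6.16-fold difference. In the order of the replicate numbers, its normalised value was 519, 495 and 230 in the 6 h control and 514, 438 and 202 in the 6 h heat group. At 3 days it was 2604 and 2224 in the control, 2400 and 2438 after recovery, and 3031, 2827 and 1122 under heat. All 3-day libraries lay above all 6 h libraries, and replicate 3 was the lowest library of each group that had one. S was -0.13, L was -0.18 and R was 0.01, each smaller than the spread between the replicates of the heated group concerned.

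ENSBTAG00000004840, member 2, had T of 2.40 and behaved differently between replicates. Its value was 477, 454 and 2326 in the 6 h control and 461, 496 and 2347 in the 6 h heat group. At 3 days it was 4916 and 3592 in the control, 5304 and 5537 after recovery, and 4638, 4387 and 7270 under heat. The groups at 3 days did not overlap those at 6 h, but replicate 3 was the highest library of each group that had one. The difference from the 3-day control mean was 3.17 for replicates 1 and 2 of the 6 h control and 0.85 for replicate 3. Member 3 had the same pattern, with 287, 267 and 2217 in the 6 h control and 3363 and 2376 in the 3-day control.

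Other members had little offset in replicate 3. Member 14 had values of 389, 392 and 399 in the 6 h control and 380, 439 and 452 in the 6 h heat group. Its 3-day values were 1385 and 1104 in the control, 1346 and 1403 after recovery, and 1254, 1164 and 1218 under heat, with T of 1.65. The libraries of the 3-day control were further apart than those of any other group, but the ages did not overlap.

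Member 44, an abundant transcript, had 5557, 5464 and 5392 in the 6 h control and 5318, 5301 and 5332 in the 6 h heat group. It had 12023 and 12089 in the 3-day control, 13005 and 13318 after recovery, and 10650, 10777 and 11984 under heat. T was 1.14, and the largest of its absolute S, L and R was 0.13. At 3 days its recovery libraries were all higher and its heated libraries all lower than the controls, by less than 0.2 log2 units on average.

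The most abundant member, member 58, had T of 1.05. Its values were 13790, 14687 and 9618 in the 6 h control, 12024, 11456 and 11916 in the 6 h heat group, 26099 and 25754 in the 3-day control, 29174 and 28383 after recovery, and 27099, 26473 and 19272 under 3 days of heat. Replicate 3 was again the lowest in both groups at 37 °C for 6 h and at 40.5 °C for 3 days. Member 64 had the smallest of the largest absolute heat differences, 0.12, with T of 1.03. It had 465, 470 and 320 in the 6 h control, 848 and 840 in the 3-day control, and 874, 900.5 and 639 under 3 days of heat.

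**Figure D3:**
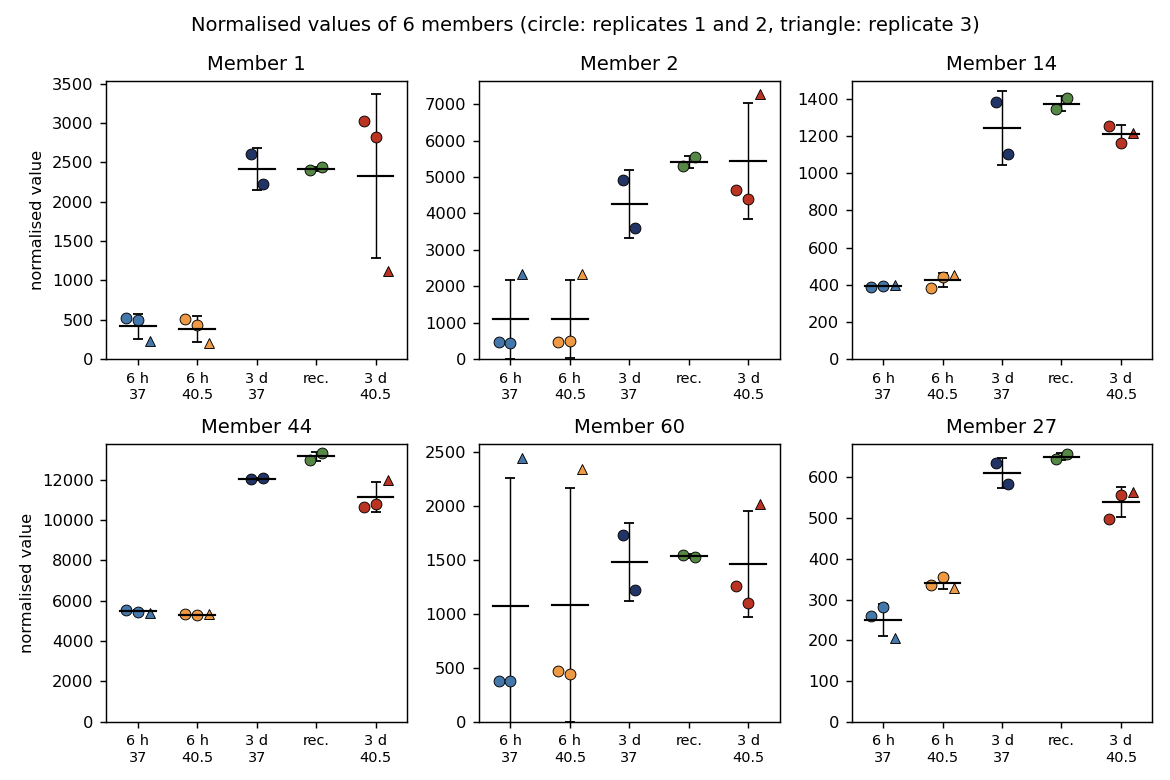
Normalised value (y axis, from 0) of members 1, 2, 14, 44, 60 and 27 in the 5 groups; 37 and 40.5 are °C and rec. is the recovery group. Circles are replicates 1 and 2, triangles replicate 3, horizontal lines group means and bars ± SD (cut at 0). In members 14 and 44 every 3-day library lies well above every 6 h library, while replicate 3 of member 60 at 6 h lies above both libraries of its 3-day control.

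The step from 6 h to 3 days was also taken between libraries of the same replicate number. The numbers do not pair the 3-day control or recovery libraries with those at 6 h, so the match there is arbitrary, and the series under continued heat and through recovery start from the same 6 h heat libraries. From the 6 h to the 3-day control the median member was higher by 1.17 in replicate 1 and 1.21 in replicate 2. Under continued heat, from ShortHS to LongHS, the median was 1.32, 1.35 and 1.14 in replicates 1 to 3. From 6 h of heat to the end of recovery it was 1.28 and 1.33. These sizes follow from the rule on the group means, and the single libraries show how evenly it was met. All 67 members were higher at 3 days in replicates 1 and 2 in each of these series, and 62 of 67 were higher in replicate 3 under heat. The share of all genes that were higher was not taken. Over all genes in the range the median step under continued heat was -0.009, -0.015 and -0.0095 in replicates 1 to 3. Under continued heat 52, 53 and 37 members reached 1 in replicates 1 to 3. Of the 361 other genes with T of at least 1, 147, 146 and 119 reached 1 in replicates 1 to 3 under continued heat.

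Overlap between the ages was also counted. In 55 of the 67 members every library taken at 3 days lay above every library taken at 6 h, where 6.61% of the genes in the range did so, a difference that the rule favours. Of the 361 other genes with T of at least 1, 101 did so. In the remaining 12 members the ages overlapped. Without the replicate 3 libraries, the ages did not overlap in any of the 67 members, where 12.6% of genes in the range met that condition. In 9 of the 12 the lowest 3-day library was replicate 3 of the 3-day heat group. Both 3-day control libraries lay above the 6 h controls in 64 members, where 25.5% of genes did so.

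With a test for every gene, limma called 59 of the 67 members at an adjusted p of 0.05 for the 3-day against the 6 h control, all higher, where 25.3% of 13684 tested genes were called in either direction. The rule chose on this difference, so nothing is read from the count. The 8 members that were not called had T from 1.04 to 2.35. Member 3 (limma adjusted p 0.0857) and member 60 (0.372) were among them.

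The label of the set, a rise unaffected by heat, was examined in the same fit. Limma called 1 member for 6 h of heat at an adjusted p of 0.05, where 31.5% of tested genes were called, and 4 for 3 days of heat, where 40.4% were. For recovery limma called 0 members, where 0.797% of genes were called. At an unadjusted p under 0.05 the recovery comparison had 1 member, and edgeR and DESeq2 called 0, with no share of all genes taken for these. The difference between the heat effects at 3 days and at 6 h was called in 1 member, where 13.9% of genes were. Nothing is read from these counts either, since small differences were the condition of entry.

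The members called for heat had differences under 0.5 by the rule. Member 27 was higher after 6 h of heat, with 336, 355 and 327 against 260, 282 and 205 in the control, S of 0.46 and a limma adjusted p of 0.00941. These libraries did not overlap. After 3 days its values were 496, 556 and 564 under heat and 636 and 583 in the control, with L of -0.18. Member 41 was higher after 3 days of heat, with 5566, 5703 and 4950 against 4567 and 3851, L of 0.36 and a limma adjusted p of 0.018. Members 31 and 45 were also higher, with L of 0.32 and 0.48. Member 53 was lower, with 107, 109 and 116 against 169 and 139, L of -0.47 and a limma adjusted p of 0.0458. For these members, a heat difference under 0.5 did not mean the absence of a difference between the libraries.

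The counts moved with the fit, for which the cause was not tested. The block and the leaving out of replicate 3 change the estimated differences as well as the spread. With the replicate number as a block, 9 members were called for 6 h of heat, 5 higher and 4 lower, where 44.6% of genes were called. The block gave 15 for 3 days of heat, 11 higher and 4 lower (51.6% of genes), and 1 for recovery (5.69% of genes). For the difference between the heat effects it gave 8 (28.7% of genes). In replicates 1 and 2 alone the counts were 17 for 6 h of heat, 7 higher and 10 lower (44.6% of genes), 21 for 3 days of heat, 15 higher and 6 lower (55% of genes), and 8 for recovery, 5 higher and 3 lower (13.1% of genes). The difference between the heat effects was then called in 23 (32.9% of genes). Leaving out single libraries gave from 1 to 7 members for 6 h of heat, the most without ShortNT replicate 3. For 3 days of heat it gave from 0, without LongHS replicate 2, to 5, without ShortHS replicate 3. The share of all genes called for heat was not taken in these fits. Whether the member counts moved with the whole table therefore cannot be told.

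In the fit without the replicate block, the precision of the absence of a heat effect was limited. The 95% interval of a difference in limma reached to either side by a median of 0.496 for S, 0.555 for L and 0.608 for R over the members. It lay wholly inside 0.5 in 13 members for S, 10 for L, 8 for R and 4 for all of these. Inside 1 it lay in 53, 45 and 45 members, and in 40 for all. For the other 27 members, a difference of 1 log2 unit in at least 1 heated group was within the interval. These intervals are centred on values that were chosen to be small. The offset of replicate 3 counts as spread in them, and intervals with the block were not computed.

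**Figure D4:**
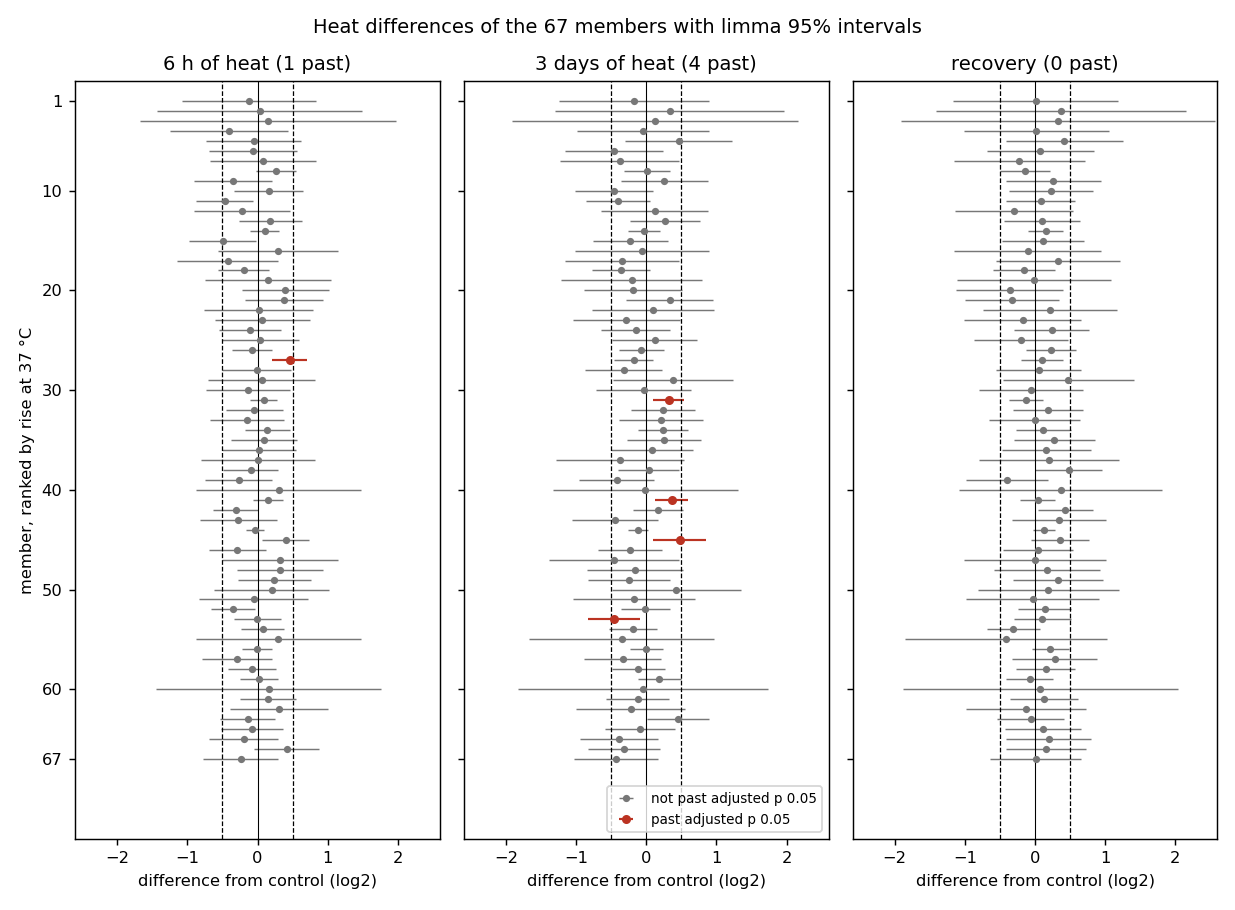
Difference from the matched control in log2 units (x axis) for the 67 members (y axis, ranked by T) after 6 h of heat, 3 days of heat and recovery. Bars are limma 95% intervals from the fit without the replicate block, dashed lines the limits of 0.5, and red points passed an adjusted p of 0.05. All points lie inside the limits by the rule, while most bars cross at least 1 of them.

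Within the limits, the members' heat differences were not all centred alike. S was above 0 in 35 members and below 0 in 32, with a median of 0.02 (-0.03 in replicates 1 and 2), beside -0.01 over all genes in the range. L was above 0 in 24 and below in 43, with a median of -0.09 beside 0.01. R was above 0 in 46 and below in 21, with a median of 0.12 beside -0.00385. L and R share the 3-day control libraries with T and with each other. The median of L was 0.04 in replicates 1 and 2, so its sign rested on replicate 3 of the 3-day heat group. The median of R kept its sign under upper quartile scaling (0.09), quantile normalization (0.12) and TMM scaling (0.12).

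The members varied most between replicate 3 and the others. Replicates 1 and 2 of a group were close, with a median absolute difference from 0.08 in the 3-day heat group to 0.19 in the 3-day control, beside 0.07 and 0.14 over all genes in the range. Replicate 3 differed from the mean of replicates 1 and 2 by at least 0.5 in 43 members in the 6 h control (64.2%, beside 18% of all genes in the range). In the 6 h heat group 56.7% of members did so, beside 14.5% of genes, and in the 3-day heat group 40.3% beside 12.4%. Among the 361 other genes with T of at least 1 the shares were 67.6%, 62.3% and 55.4%. The spread was therefore not particular to the members. Replicate 3 enters the group means that chose them, so no test is given. The median residual SD in limma was 0.31 for the members, 0.42 for the 361 other genes and 0.14 for all genes in the range.

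Replicate 3 moved the members in both directions. It was higher by at least 0.5 in both 6 h groups in 11 members and lower by at least 0.5 in both in 17, and 1 member went opposite ways. The remaining members did not reach 0.5 in both groups. The 11 and 17 together were 41.8% of the members, beside 9.46% of all genes in the range. Among the 361 other genes with T of at least 1 the share was 53.7%, so these classes were not particular to the members. Across the 67 members the deviation of replicate 3 in the 6 h control and in the 6 h heat group had a Pearson r of 0.84, beside 0.82 over all genes in the range. This is a description across genes, which share these libraries. In the 3-day heat group 3 of the 11 members were again higher by 0.5 and 11 of the 17 again lower.

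The classes fix which of the differences below is the larger, and only their sizes are described. In the 11 members that were high in replicate 3 at 6 h, the 3-day control stood 1.81 above replicates 1 and 2 of the 6 h control in the median, with all 11 at 1.44 or more. It stood 0.50 above replicate 3 in the median, with values from -0.75 to 1.33. Members 55 and 60 had a 6 h control replicate 3 above the 3-day control mean. Member 60 had 382, 379 and 2452 in the 6 h control, 471, 446 and 2343 in the 6 h heat group, 1738 and 1225 in the 3-day control, 1550 and 1525 after recovery, and 1263, 1104 and 2023 under 3 days of heat. The 3-day control of member 60 stood above replicates 1 and 2 of the 6 h control and below replicate 3 of that group. The 3-day control has no replicate 3, so the offset of replicate 3 is mixed with culture time in the latter comparison. Whether the difference with culture time was reversed in replicate 3 of the controls was therefore not measured. Member 55 had 2073, 1457 and 7732 in the 6 h control against 6317 and 5900 in the 3-day control.

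In the 17 members that were low in replicate 3 at 6 h, the median difference was 1.02 from replicates 1 and 2 and 1.91 from replicate 3. Only 9 of the 17 reached 1 against replicates 1 and 2, so for the other 8 the entry of the gene into the set rested on replicate 3. In the 39 members with neither pattern the medians were 1.14 and 1.499, and 27 reached 1 in replicates 1 and 2.

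**Figure D5:**
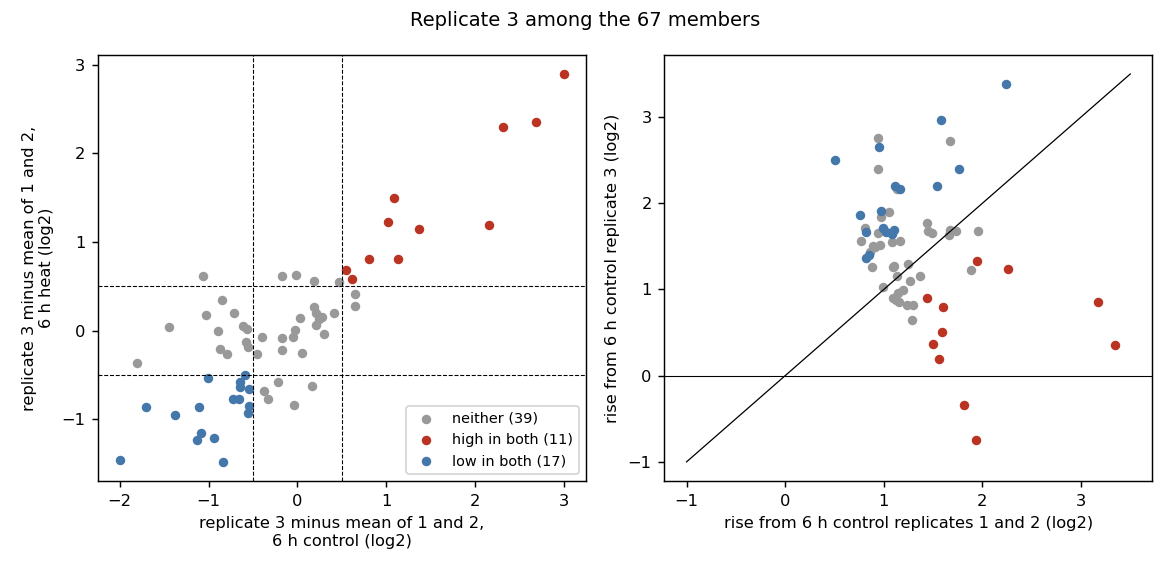
Left, replicate 3 minus the mean of replicates 1 and 2 in the 6 h heat group (y axis) against the same in the 6 h control (x axis), in log2 units, for the 67 members. Right, the difference of the 3-day control from replicate 3 (y axis) against that from replicates 1 and 2 of the 6 h control (x axis). The line marks equal values. The 11 members that were high in replicate 3 (red) lie below the line and the 17 that were low (blue) above it by the way these classes were defined, and 2 of the 11 lie below 0.

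Applied to replicates 1 and 2 alone, the rule chose 77 genes, 40 of them among the 67 members. Of the 27 members that no longer met it, T was under 1 in 20, absolute S was 0.5 or more in 7, absolute L was 0.5 or more in 5, and the mean value was outside the range in 1. A member can fail on more than 1 of these. The smallest T of a member in replicates 1 and 2 was 0.50. Leaving out ShortNT replicate 3 alone left 36 of the 67 within the rule, and leaving out any other single library left more. With the replicate block 46 remained.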

How the data were processed

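Polyadenylated RNA of 13 cultures was sequenced. Each gene and library has a normalised signal, which the authors deposited after DESeq scaling, per the file name. The submitters' processing notes name cutadapt, STAR, HTSeq and DESeq and the build ARS-UCD1.2; versions, annotation, strand setting and batches are not given in the sources used here. Values were whole multiples of the library's smallest value above 0 in 100% of cases within 0.01 reads, so reads were recovered for depth and count tests. Intervals cover the spread between libraries.

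Values were taken as log2(value + 1), and 13684 genes (82.5%) with at least 10 in at least 2 libraries were tested with limma 3.58.1 in R 4.3.3 (empirical Bayes, mean-variance trend, 5 group means over 13 libraries, 8 residual degrees of freedom, two-sided, Benjamini-Hochberg over all tested genes). All 67 members passed this filter. Members and lists were chosen with earlier results of these data known. Members were to be named by list, by T, by abundance and by flatness, but genes without a symbol were to be counted only, except the leading 2; those shown by rank beside these were chosen after their values were seen. The fit was first tested on simulated data with independent replicates. These held no shared offset of replicate 3, so that test does not cover it.

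Same-numbered libraries deviated together in the groups of 3, with r from 0.27 to 0.72 over 9 pairs, which met the criterion for a pairing (r over 0.1 in every pair). Number 1 set against number 2 of another such group was about as alike (r from 0.27 to 0.48, 6 pairs). What the numbers carried was thus mainly replicate 3 against the others, with little to tell 1 from 2. Number 3 against 1 or 2 gave r from -0.62 to -0.35 (12 pairs). Deviations were taken from the group mean, so where same numbers are alike, r between different numbers is negative on average by construction. The 14 same-numbered pairs that involve a group of 2 gave r from -0.05 to 0.13 and were not paired. The labels state no shared donor or day. Alternatives were other pseudocounts, filters and scalings, the block, replicates 1 and 2, no trend, edgeR 4.0.16, DESeq2 1.42.0, other limits of the rule and each library left out.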

Additional observations from a re-analysis of the deposited data

Results flagged for a closer look

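For 1 of the 67 members the interaction contrast in limma, L minus S, passed an adjusted p of 0.05, where 13.9% of tested genes did. It was member 27, with S of 0.46, L of -0.18 and a difference of -0.64 (adjusted p 0.0301). The rule bounds both effects, so nothing is read from the count. With the replicate block it was 8 members and in replicates 1 and 2 alone 23. Without single libraries it ran from 0 to 3, with no share of all genes taken.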

How the results depend on the processing

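The number of genes that meet the rule stayed from 63 to 87 under the other pseudocounts, scalings, the replicate block and replicates 1 and 2 (77), and from 64 to 85 without single libraries. It moved with the limits: 20 genes with a limit of 0.25 on S, L and R and 134 with 0.75, 182 with T of at least 0.75 and 19 with T of at least 1.5. Of the 67 members, 40 met the rule in replicates 1 and 2, 46 under the replicate block, and from 36 (without ShortNT replicate 3) to 66 without single libraries; tighter limits left 20 and 19.

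Genes called for time at 37 °C numbered 3467, from 872 (without LongNT replicate 1) to 3928 without single libraries (2300 without LongNT replicate 2), 5028 with the block and 5950 in replicates 1 and 2. Without a LongNT replicate that arm holds 1 library, which is assumed to vary like the other groups.

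Members called for 6 h of heat, 3 days of heat, recovery and the difference of the heat effects were 1, 4, 0 and 1. With the replicate block they were 9, 15, 1 and 8, and in replicates 1 and 2 alone 17, 21, 8 and 23. DESeq2 called 3 for 6 h of heat. Without single libraries the ranges were 1 to 7, 0 to 5, 0 to 0 and 0 to 3. The share of all genes called for heat or recovery was not taken for DESeq2 or without single libraries. The cause of these shifts was not tested. T of the leading members stayed from 2.21 to 2.83 for ENSBTAG00000015074 and from 1.99 to 3.17 for ENSBTAG00000004840 over these settings. Scaling moved the median T of all genes in the range by less than 0.1.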
